A study of Mus musculus with 6 samples.

Results

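The mitochondrial ribosomal protein genes of the mouse lung were taken as the rows whose symbol is Mrpl or Mrps followed by a number and at most 1 letter. The rule found 78 of the 29753 rows of the deposited count table, 49 named for the large subunit (Mrpl) and 29 for the small subunit (Mrps). All 78 were protein-coding genes in the GENCODE annotation of GRCm38, spread over 17 chromosomes with 11 on chromosome 11, and the 5 rows that carry a pseudogene suffix were not members. The low count filter left 77 of the 78 in the test, 49 large and 28 small, and set aside Mrps10, a small subunit protein with a bacterial counterpart.

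Bulk RNA sequencing compared lungs of balb/c mice on day 14 (D14) with lungs on day 0 (D0) after K7M2 cells, a mouse osteosarcoma line that colonises the lung, had been implanted orthotopically. Both days are labelled as after implantation, each had 3 libraries labelled as biological replicates, and no D14 group without the implant is among the samples, so the tumour, the procedure, age and the day of collection cannot be told apart. The number of animals behind a library is not given in the labels, so the spread between libraries, which may be technical, is all that the p-values measure. The extraction text of the labels speaks of macrophages grown from bone marrow, against lungs in the tissue label.

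The mitoribosome sits in the mitochondrial matrix and translates the few messages of mitochondrial DNA, which encode membrane subunits of the respiratory chain and ATP synthase. Its ribosomal RNAs come from mitochondrial DNA, whereas every protein of both subunits is encoded in the nucleus, made in the cytosol and imported. The small subunit binds and decodes the message, and the large subunit joins the amino acids and releases the peptide at the inner membrane. In the lung, alveolar type 2 cells are known for abundant mitochondria that serve surfactant synthesis.

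The libraries held 14878101 to 17385006 counts. Alveolar type 2 markers (5 of 5 detected) summed to 19436 to 25652 CPM (counts scaled to library size and TMM factor) in D14 libraries and to 19179 to 44515 CPM in D0 libraries, against 256 to 307 CPM at D14 and 208 to 803 CPM at D0 for 5 macrophage markers. D0 replicate 3 stood apart: its 5 erythroid markers summed to 52461 CPM, against 9237 to 28889 CPM in the other 5 libraries. Its 5 skeletal muscle markers summed to 875.7 CPM, against 26.2 to 206.0 CPM. The highest alveolar type 2 and macrophage sums, 44515 and 803 CPM, were also of D0 replicate 3, against 19179 to 27764 and 208 to 346 CPM in the other 5 libraries. Its endothelial sum, 1681 CPM, was the lowest. Adipocyte markers summed to 39.3 to 950.5 CPM at D14 and 41.3 to 558.1 CPM at D0, and cardiac muscle markers to 265.7 to 535.5 CPM at D14 and 119.0 to 233.6 CPM at D0. Endothelial markers (4 of 4) were higher in every D14 library, at 3766 to 3791 CPM at D14 and 1681 to 3184 CPM at D0, and B cell markers (4 of 4) were lower, at 71.9 to 97.2 CPM at D14 and 116.8 to 205.5 CPM at D0. Of 5 osteoblast or osteosarcoma markers 4 had a row, Sp7 and Bglap were at 0 in at least 1 library, and the 4 summed to 35.0 to 42.9 CPM at D14 and 25.6 to 38.2 CPM at D0. The part of these cell types, and of D0 replicate 3, in the differences below was not tested beyond the values given with and without that library.

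Nuclear genes of the mitoribosome are known targets of ETS-family factors such as GABP, of NRF1 and of YY1, so promoters were read for their core letters. RefSeq windows of GRCm38.p6, 250 bases before to 50 bases after the start, were found for 69 of the 78 members. The 5 windows below, which all hold such letters, belong to 4 members whose D14 values all lay below the D0 values and to Mrps18b. The log2 fold change of Mrps18b was above 0. None of these letters stood in the windows of Mrpl46, Mrpl24, Mrpl55 and Mrps14, also wholly below D0 at D14, or of Mrpl50, above 0. Capitals mark CCGGAAG (ETS/GABP), GCGCATGCG (NRF1) and AAGATGGC (YY1), read on either strand.
Mrps24, chr11:5707652-5707951, minus strand: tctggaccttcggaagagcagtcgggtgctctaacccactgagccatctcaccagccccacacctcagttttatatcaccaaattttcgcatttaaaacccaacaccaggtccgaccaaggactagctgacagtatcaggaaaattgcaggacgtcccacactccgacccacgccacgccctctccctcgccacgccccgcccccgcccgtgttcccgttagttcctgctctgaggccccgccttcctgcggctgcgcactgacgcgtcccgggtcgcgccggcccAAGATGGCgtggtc
Mrps11, chr7:78782881-78783180, plus strand: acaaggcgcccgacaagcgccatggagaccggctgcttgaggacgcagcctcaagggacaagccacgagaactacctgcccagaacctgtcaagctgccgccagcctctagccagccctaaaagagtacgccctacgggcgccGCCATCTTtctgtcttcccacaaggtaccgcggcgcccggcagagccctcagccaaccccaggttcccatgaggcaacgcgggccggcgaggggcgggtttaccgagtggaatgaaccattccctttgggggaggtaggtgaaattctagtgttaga
Mrpl37, chr4:107066817-107067116, minus strand: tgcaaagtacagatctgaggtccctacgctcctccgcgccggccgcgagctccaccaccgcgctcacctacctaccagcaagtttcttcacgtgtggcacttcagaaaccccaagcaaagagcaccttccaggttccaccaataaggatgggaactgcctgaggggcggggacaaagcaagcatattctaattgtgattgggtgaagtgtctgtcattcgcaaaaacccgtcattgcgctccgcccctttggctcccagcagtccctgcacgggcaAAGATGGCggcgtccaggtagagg
Mrpl58, chr11:115403502-115403801, plus strand: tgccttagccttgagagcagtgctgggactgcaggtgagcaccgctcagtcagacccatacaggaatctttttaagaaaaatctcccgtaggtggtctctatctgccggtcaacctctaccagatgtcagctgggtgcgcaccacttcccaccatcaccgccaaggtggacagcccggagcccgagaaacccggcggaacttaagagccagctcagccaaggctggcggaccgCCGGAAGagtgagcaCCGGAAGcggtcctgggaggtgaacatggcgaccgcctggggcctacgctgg
Mrps18b, chr17:35916391-35916690, minus strand: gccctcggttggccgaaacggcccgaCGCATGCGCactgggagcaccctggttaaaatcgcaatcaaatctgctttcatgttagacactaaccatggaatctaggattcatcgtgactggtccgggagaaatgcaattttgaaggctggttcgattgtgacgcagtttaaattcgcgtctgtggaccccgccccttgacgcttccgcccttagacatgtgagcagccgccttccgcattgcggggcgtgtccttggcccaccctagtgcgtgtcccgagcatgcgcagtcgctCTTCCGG
Mrps24, Mrps11 and Mrpl37 held the YY1 letters, Mrpl58 held the ETS letters at 2 places close to the start, and Mrps18b held 1 ETS and 1 NRF1 match. Across the 69 members the ETS letters stood in 26 windows (37.7%), against 17.8% of the 12186 tested genes with a window and 9.93% of all 27025 genes with one. The YY1 letters stood in 12 windows (17.4%, against 4.64% of tested and 3.19% of all genes) and the NRF1 letters in 7 (10.1%, against 3.56% and 1.95%). Any of the 3 was found in 38 of 69 members (55.1%, against 14.1% of all genes, many of them not tested). The share of tested genes with any of the 3 was not computed. The ETS and YY1 letters can share AAG, but matches of different motifs overlapped in 0 member windows. The 26 tested members with the ETS letters had a median log2 fold change (D14 minus D0) of -0.23, with a range of -0.54 to 0.23, and the 42 without had -0.18, with a range of -0.63 to 0.16. The medians were -0.22 for 12 members with and -0.20 for 56 without the YY1 letters, and -0.08 for 7 with and -0.22 for 61 without the NRF1 letters.

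Levels were compared between genes as CPM per kilobase of transcript. Members covered a wide span in each library, and their order was nearly the same in all: Spearman correlations of this level over the 78 genes ran from 0.949 to 0.979 between pairs of libraries. The large subunit genes had a median level of 16.4 CPM per kb and the small subunit genes 12.6 CPM per kb over the 6 libraries. Mrpl33, a small protein with a bacterial counterpart in the large subunit, had the highest level, at 125.1, 110.3 and 89.97 CPM per kb in the D14 libraries, against 107.2, 140.7 and 226.5 CPM per kb in the D0 libraries. Mrpl52, a protein without a bacterial counterpart in the central protuberance, came next at a mean of 116.3 CPM per kb, and its libraries overlapped those of Mrpl33. Mrpl14, the large subunit protein that binds the assembly factor Malsu1, averaged 76.7 CPM per kb. Mrps21, the counterpart of a bacterial small subunit protein, led the small subunit at 70.0 CPM per kb. The levels of Mrpl14 and Mrps21 overlapped as well. The order depends on the length used, with a Spearman correlation of 0.634 between levels per kilobase of transcript and of coding sequence. Per kilobase of coding sequence, Mrps25 led the small subunit at 140.9 CPM, against 130.9 CPM for Mrps21.

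Per kilobase of transcript, Mrps18a and Mrps18c followed Mrps21 among the genes named for the small subunit, at 42.0 and 31.5 CPM per kb. Per kilobase of coding sequence they stood at ranks 24 and 36 of the 78 members. At the low end of the tested members, Mrps5, near the message entry of the small subunit, averaged 4.80 CPM per kb and Mrpl19, at the interface of the subunits, 3.43 CPM per kb. Both have long annotated transcripts, of 4481 and 5000 bases. Per kilobase of coding sequence, Mrpl19 stood at rank 65 of the 78 members in place of rank 77. Mrps5 stood at rank 70 in place of rank 73. This order was computed after seeing the data. Mrps10, at a mean of 0.637 CPM per kb, had 18, 6 and 8 counts in the D14 libraries and 14, 9 and 8 counts in the D0 libraries. Another annotated gene, AC154457.3, holds 24.8% of its 50-base words, so its reads could be split, and with so few counts no difference between the days was detectable.

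**Figure D1:**
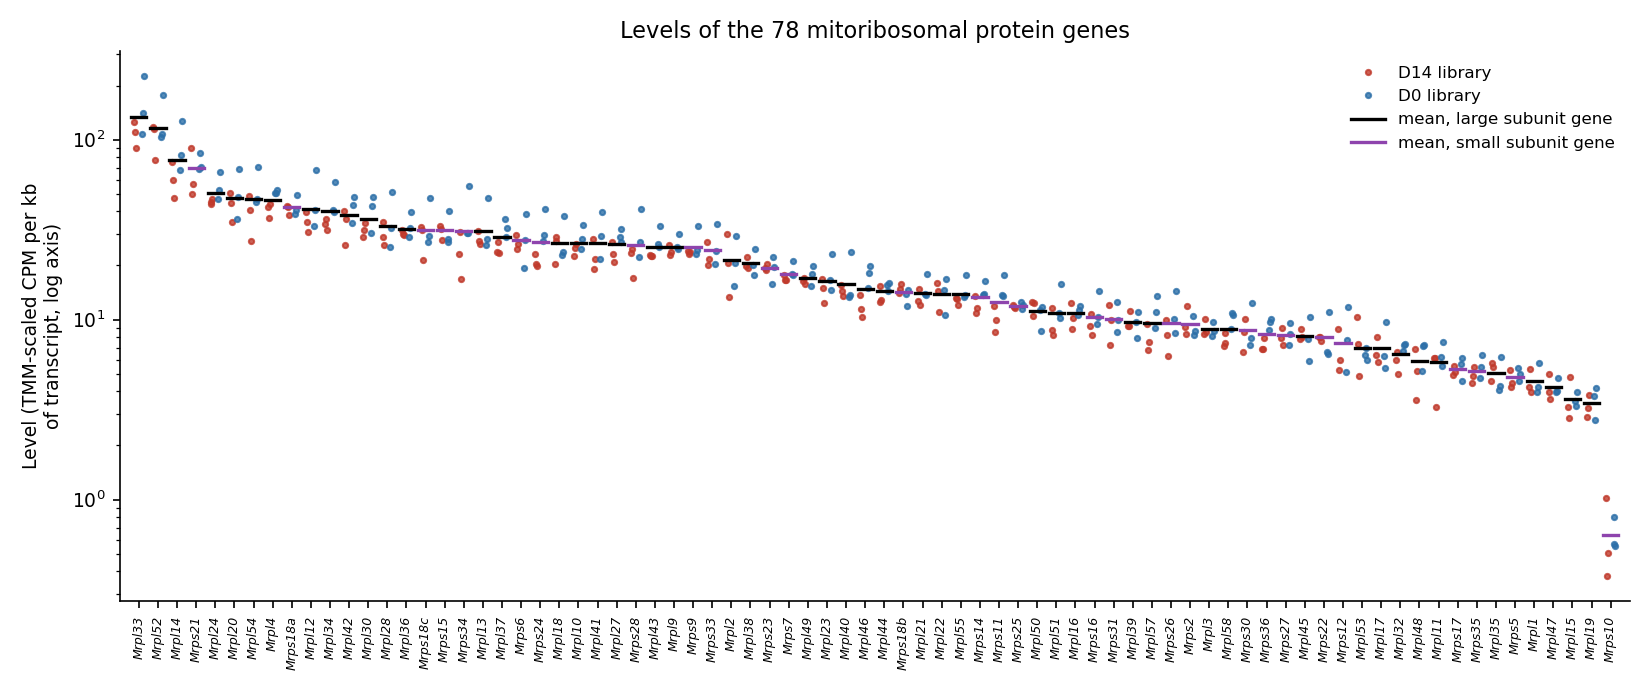
Level of each of the 78 genes in TMM-scaled CPM per kilobase of transcript (log axis), with red points for the 3 D14 libraries, blue points for the 3 D0 libraries and a bar at the mean (black large, purple small subunit). Levels run from 133.3 CPM per kb for Mrpl33 to 0.637 CPM per kb for Mrps10, and the days overlap for most genes.

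The 2 subunits were summed per library to see how much mitoribosomal message each lung held. Large subunit genes summed to 1375, 1300 and 1214 CPM in the D14 libraries, against 1331, 1416 and 1904 CPM in the D0 libraries. Small subunit genes summed to 719, 665 and 646 CPM in the D14 libraries, against 689, 719 and 910 CPM in the D0 libraries. Both sums were highest in D0 replicate 3, D0 replicate 2 lay just above the highest D14 library in each, and D0 replicate 1 lay within the D14 range. The large to small ratio was 1.91, 1.95 and 1.88 at D14, against 1.93, 1.97 and 2.09 at D0, again with D0 replicate 3 at the top. These sums go by gene name, and the small one holds Mrps18a and Mrps30, which sit in the large subunit. Together these genes summed to 59.9 to 67.2 CPM at D14 and 58.3 to 84.4 CPM at D0. The ratio with them moved was not computed.

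Relative to each gene's own mean over the 6 libraries, the same library carried both subunits. The median deviation of the 49 large subunit genes (log2 scale) was -0.03, -0.09 and -0.19 in D14 replicates 1 to 3, against -0.04, 0.00 and 0.36 in D0 replicates 1 to 3. For the 28 small subunit genes it was 0.00, -0.10 and -0.12 at D14, against -0.11, 0.01 and 0.33 at D0. Of the 77 tested members 59 (76.6%) had their highest value in D0 replicate 3, where 28.7% of all tested genes did. Over the 5 libraries without it, the large subunit medians were 0.05, -0.01 and -0.12 at D14, against 0.02 and 0.08 at D0, and the days overlapped. In bulk tissue, fewer cells rich in a message and less of it per cell cannot be told apart.

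**Figure D2:**
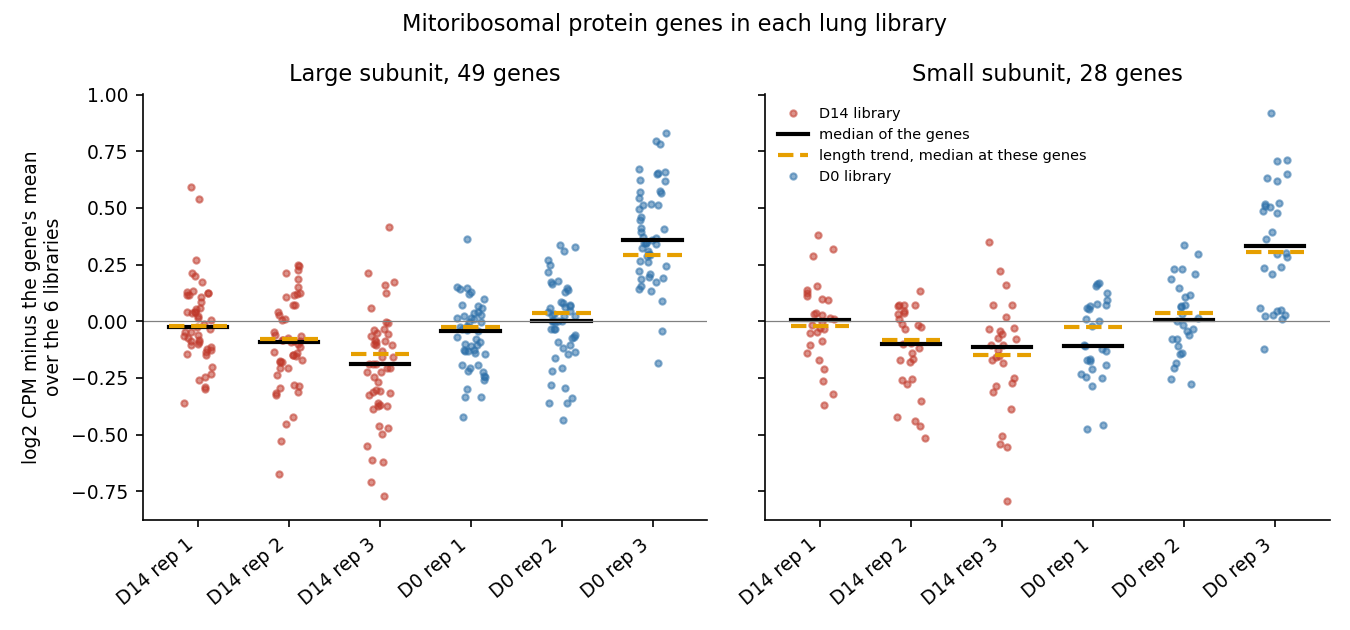
Deviation of log2 CPM from each gene's mean over the 6 libraries, 1 point per gene, for 49 large (left) and 28 small subunit genes (right), with D14 libraries in red and D0 libraries in blue; the black line is the median and the dashed line the median of the transcript length trend at these genes. The medians of D0 replicate 3, 0.36 and 0.33, stand above those of the other 5 libraries.

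No mitoribosomal gene passed the test between D14 and D0. Of 77 tested members 0 had an adjusted p under 0.05 in the edgeR quasi-likelihood test, where 6 of 17686 genes (0.0339%) did. The counts were also 0 with DESeq2, which called 1.24% of all genes, and with limma-voom, which called 0.0339%. At an unadjusted p under 0.05, edgeR gave 7 members lower at D14 (9.09%, against 7.09% of all tested genes) and 0 higher (against 5.48%). DESeq2 gave 4 members below that unadjusted p (8.28% of all genes in either direction) and limma-voom 7 (12.4% of all genes). Single libraries moved the edgeR count of 7, in either direction, to 14 without D0 replicate 1 (against 18.7% of all genes), 3 without D0 replicate 3 (11.6%), 3 without D14 replicate 2 (6.76%) and 2 without D14 replicate 3 (6.65%).

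Most fold changes were below 0. The log2 fold change was negative for 67 of the 77 members (87.0%, against 53.1% of all tested genes), with medians of -0.24 for the large and -0.16 for the small subunit, against -0.03 over all genes. Without D0 replicate 3 the medians were -0.06 and -0.03, and 46 of 77 were below 0. Ranges that do not overlap placed D14 below D0 for 15 members (19.5%, against 10.7% of all genes) and above D0 for 0 (against 10.9%). Leaving out a D0 library cannot undo such a separation. Without D0 replicate 3, D14 lay below D0 for the same 15 (19.5%, against 16.5%), with log2 fold changes between -0.48 and -0.06, and above D0 for 3, Mrpl35, Mrps18b and Mrps22 (against 15.3%). The count of members whose ranges do not overlap, in either direction, was 27 without D14 replicate 1 (against 35.0% of all genes), 26 without D0 replicate 1 (against 39.9%), and 9 with an offset for transcript length (against 20.6%), of which 5 had D14 below and 4 above D0.

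**Figure D3:**
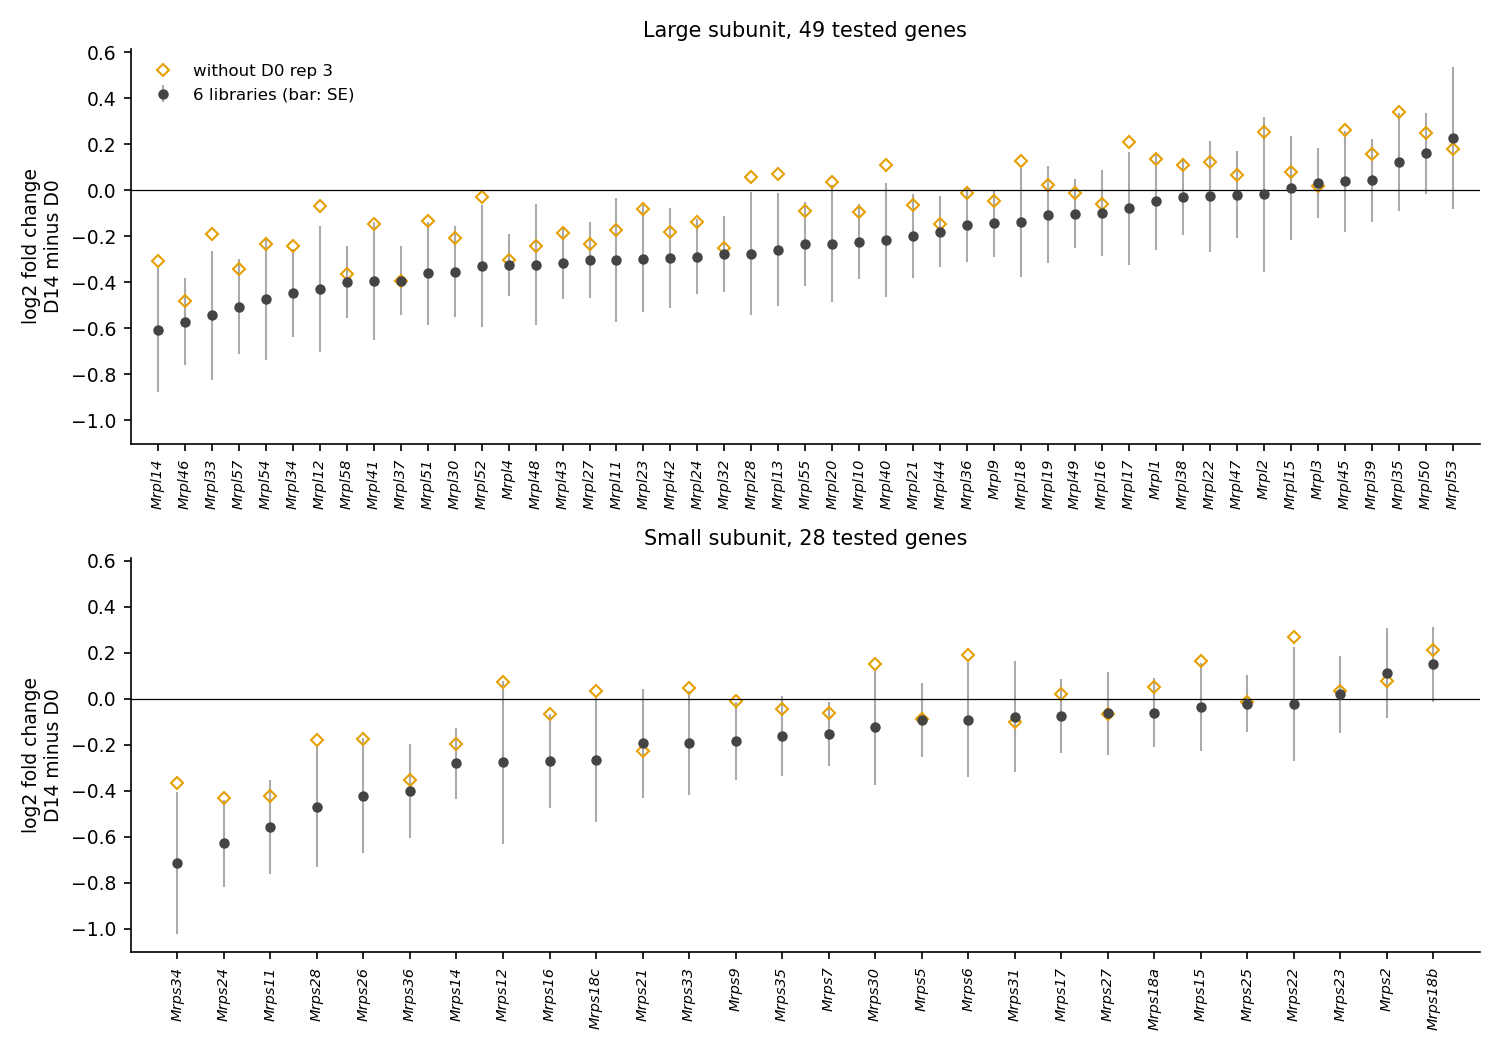
Log2 fold change, D14 minus D0, of the 49 large (top) and 28 small subunit genes (bottom) from the edgeR fit, with bars of 1 SE, and of the same genes without D0 replicate 3 (open diamonds). Most filled points lie below 0, and most diamonds lie nearer to 0 or above it.

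Among the small subunit genes, Mrps24 had the smallest p of all members. Mrps24 (chromosome 11, 5703983-5715680, minus strand), which lies at the head near the entry of the message, stood at 23.1, 20.3 and 19.8 CPM in the D14 libraries, against 27.4, 29.6 and 40.8 CPM in the D0 libraries. All D14 values lay under all D0 values, with D0 replicate 3 the highest. Its log2 fold change was -0.63 (SE 0.19, adjusted p = 0.362, edgeR) and -0.43 without D0 replicate 3. The gene shares 226 exon bases with Urgcp on the same strand, and its counts may hold reads of that gene.

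Mrps11 and Mrpl46 form a head-to-head pair on chromosome 7 (Mrps11 at 78783119-78792989, plus strand; Mrpl46 at 78775236-78783531, minus strand). Mrps11, a protein of the platform where the message leaves the small subunit, stood at 12.6, 8.99 and 10.6 CPM in the D14 libraries, against 14.5, 14.3 and 18.6 CPM in the D0 libraries. Mrpl46, in the central protuberance of the large subunit, stood at 15.6, 13.1 and 11.7 CPM in the D14 libraries, against 16.98, 20.6 and 22.5 CPM in the D0 libraries. Neither gene's ranges overlapped. The log2 fold changes were -0.56 (SE 0.20, adjusted p = 0.365, edgeR) for Mrps11 and -0.57 (SE 0.19, adjusted p = 0.364) for Mrpl46. They share 173 exon bases on opposite strands, and with the strand setting of the counting not given in the sources used here, reads there cannot be told apart.

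Mrpl37 and Mrpl58 completed the large subunit genes of smallest p. Mrpl37 (chromosome 4, 107055874-107066868, minus strand), a mitochondrial addition to the large subunit, stood at 35.5, 40.7 and 35.2 CPM in the D14 libraries, against 54.5, 43.3 and 48.5 CPM in the D0 libraries. Mrpl58 (Ict1; chromosome 11, 115403752-115412674, plus strand) resembles a release factor and frees peptides from stalled mitoribosomes. It stood at 18.5, 19.3 and 21.9 CPM in the D14 libraries, against 23.0, 28.2 and 27.4 CPM in the D0 libraries. For both, D14 lay below D0 and D0 replicate 3 was not the highest library. Log2 fold changes were -0.39 for Mrpl37 (SE 0.15, adjusted p = 0.373, edgeR) and -0.40 for Mrpl58 (SE 0.16, adjusted p = 0.380), and -0.40 and -0.36 without D0 replicate 3.

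Mrps34 (chromosome 17, 24895116-24897502, plus strand), a small subunit protein without a bacterial counterpart, had the lowest log2 fold change of all members, -0.71 (SE 0.31, adjusted p = 0.399, edgeR). It stood at 21.4, 28.1 and 15.4 CPM in the D14 libraries, against 27.8, 28.0 and 50.7 CPM in the D0 libraries. D14 replicate 2 overlapped D0, and without D0 replicate 3 the value was -0.37. Most of its exons lie over Nme3 (763 bases, same strand) and Mapk8ip3 (1309 bases, opposite strand), so its counts are uncertain.

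The other members with D14 wholly below D0, listed after their values were seen, were Mrpl4, Mrpl24, Mrpl27, Mrpl32, Mrpl34, Mrpl43, Mrpl55, Mrps7, Mrps14 and Mrps36. Mrpl4 and Mrpl24 line the early peptide tunnel and its exit, Mrpl27 reaches towards the peptidyl transferase centre, and Mrps7 and Mrps14 belong to the head of the small subunit. Mrps36 is now known chiefly as a subunit of the 2-oxoglutarate dehydrogenase complex, an enzyme of the citric acid cycle. Log2 fold changes of all 15 ran from -0.63 to -0.15. Mrpl27 and Mrps36 also have pseudogene rows. Summing these with the gene, an alternative added after seeing the data, moved the log2 ratio of the D14 and D0 means to -0.35 in place of -0.31 for Mrpl27 and left it at -0.40 for Mrps36. For Mrpl23, of which 76.4% of the 50-base words also occur in Mrpl23-ps1, the pseudogene row held 2248 counts over the 6 libraries and the gene 1081, and the sum gave -0.45 in place of -0.30.

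The genes of highest level were carried by D0 replicate 3. Mrpl33 stood at 59.8, 52.7 and 43.0 CPM in the D14 libraries, against 51.2, 67.3 and 108.3 CPM in the D0 libraries, and Mrpl14 at 48.5, 38.5 and 30.6 CPM against 43.9, 53.3 and 82.0 CPM. Mrpl52 stood at 49.1, 48.0 and 32.2 CPM in the D14 libraries, against 43.2, 44.9 and 74.4 CPM in the D0 libraries. All 3 overlapped between the days. Their log2 fold changes were -0.54, -0.61 and -0.33 (adjusted p = 0.443, 0.407 and 0.589, edgeR), and -0.19, -0.31 and -0.03 without D0 replicate 3. Mrps21, in contrast, was highest in D14 replicate 1, at 43.6, 24.3 and 27.7 CPM in the D14 libraries, against 33.7, 41.1 and 34.6 CPM in the D0 libraries (log2 fold change -0.19, SE 0.24).

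The stalk recruits translation factors to the large subunit. Mrpl12, the flexible stalk protein, stood at 52.4, 46.0 and 40.2 CPM in the D14 libraries, against 43.6, 53.3 and 89.7 CPM in the D0 libraries. Mrpl10, which anchors it, stood at 38.5, 42.5 and 45.1 CPM at D14, against 41.9, 48.0 and 57.4 CPM at D0. Mrpl11, at the base, stood at 18.8, 18.6 and 9.998 CPM at D14, against 18.9, 16.7 and 22.8 CPM at D0. The days overlapped for each, and D0 replicate 3 was the highest library for each. Log2 fold changes were -0.43, -0.22 and -0.30 (adjusted p = 0.501, 0.548 and 0.626, edgeR). Of the 5 stalk genes 4 were below 0, with a median of -0.30 and of -0.10 without D0 replicate 3.

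Other regions of the particle were read in the same way, with no test between regions. All 9 central protuberance genes had a log2 fold change below 0 (median -0.24), 3 of them with D14 ranges below D0 (against 10.7% of all tested genes), and 5 of 9 were below 0 without D0 replicate 3 (median -0.03). For the 6 tunnel exit genes the median was -0.05, and 0.10 without D0 replicate 3. Among them, Mrpl45, which attaches the particle to the inner membrane, stood at 19.0, 21.6 and 19.4 CPM at D14, against 19.0, 14.4 and 24.9998 CPM at D0. For 10 core genes with bacterial counterparts the median was -0.15 and 0.02. The 14 tested small subunit genes with bacterial counterparts had a median of -0.19 and the 9 without one -0.08, against -0.04 and -0.05 without D0 replicate 3. Mrps12, the decoding centre protein, stood at 7.88, 4.66 and 5.26 CPM at D14, against 4.53, 6.77 and 10.3 CPM at D0, and the days overlapped (log2 fold change -0.28, and 0.07 without D0 replicate 3).

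The 3 mammalian paralogues of the S18 protein differ in place. Mrps18c sits where the bacterial protein does, Mrps18b elsewhere on the small subunit, and Mrps18a, despite its name, on the large subunit. Mrps18a stood at 37.8, 37.3 and 33.9 CPM at D14, against 34.4, 35.9 and 43.5 CPM at D0. Mrps18b stood at 15.2, 16.1 and 17.05 CPM at D14, against 15.1, 12.8 and 15.7 CPM at D0. Mrps18c stood at 20.9, 20.2 and 13.7 CPM at D14, against 17.3, 18.5 and 30.1 CPM at D0. All 3 overlapped between days, and Mrps18b was 1 of the 10 members with a log2 fold change above 0 (0.15, SE 0.16), against -0.06 for Mrps18a and -0.27 for Mrps18c, which were 0.05 and 0.03 without D0 replicate 3. An annotated antisense gene covers 638 exon bases of Mrps18b. Another gene, Gm13552, holds 30.9% of its 50-base words and had 233 counts over all libraries, against 1464 for Mrps18b. Mrps30, also a large subunit protein by structure, stood at 22.1, 28.3 and 33.3 CPM at D14, against 24.0, 26.4 and 40.9 CPM at D0, with a log2 fold change of -0.12, and of 0.15 without D0 replicate 3.

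Of the 10 members above 0, none had a D14 range above D0 with all 6 libraries, and Mrpl35 and Mrps18b did without D0 replicate 3. Mrpl50, a large subunit protein without a bacterial counterpart, stood at 26.4, 22.1 and 26.2 CPM at D14, against 23.8, 18.2 and 24.9 CPM at D0 (log2 fold change 0.16, SE 0.18). Mrpl53 of the stalk region had the highest value, 0.23 (SE 0.31), at 7.18, 5.10 and 3.40 CPM at D14, against 4.42, 4.86 and 4.14 CPM at D0. It rests on D14 replicate 1, without which the value was -0.07, and 695 exon bases are shared with another protein-coding annotation, Gm42688. Mrpl35 and Mrps2 stood at 0.12 and 0.11 and Mrps23 at 0.02. Mrps23, a small subunit protein without a bacterial counterpart, stood at 25.9, 25.1 and 27.0 CPM at D14, against 21.1, 29.8 and 26.2 CPM at D0. At the low end of the levels, Mrps5 and Mrpl19 had log2 fold changes of -0.09 and -0.11.

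**Figure D4:**
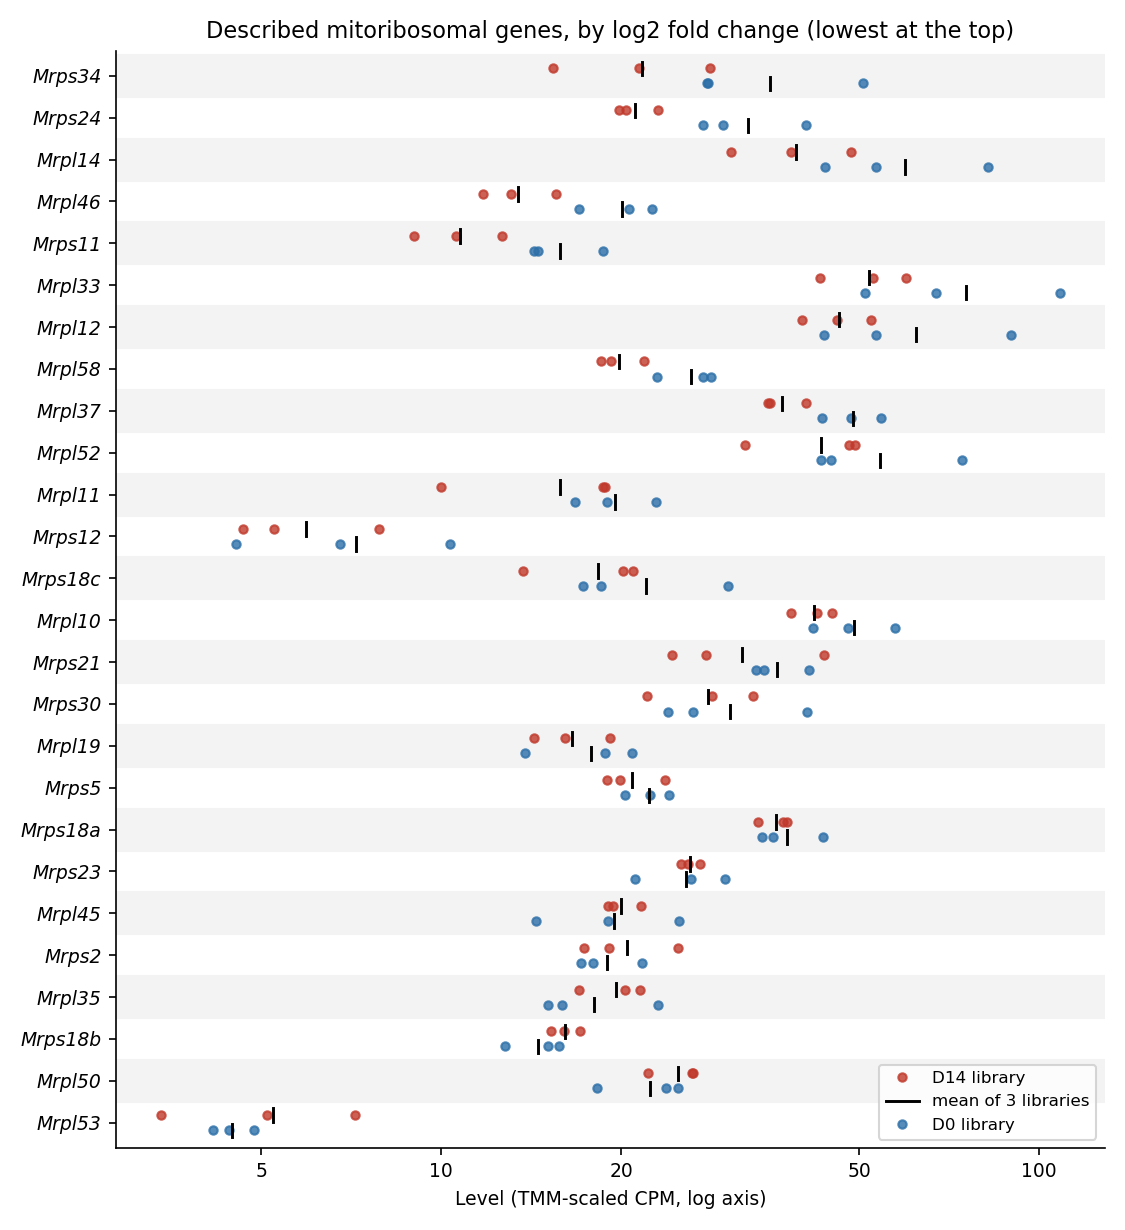
Level in TMM-scaled CPM (log axis) of the 26 genes described by rule, ordered by log2 fold change with the lowest at the top; for each gene the 3 D14 libraries (red) lie above the 3 D0 libraries (blue), with a tick at the mean. Mrps24, Mrpl46, Mrps11, Mrpl58 and Mrpl37 are the 5 whose days do not overlap.

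Transcript length moved with these values. Genes that are no members were fitted with a trend of log2 CPM deviation on transcript length in each library, and Spearman correlations over 17266 such genes were -0.50 in D0 replicate 3 and 0.34 in D14 replicate 3. Members are short, from 418 to 7300 bases with a median of 1316 among those tested, against 2713 over all tested genes. At the members' lengths the trend had a median of 0.29 in D0 replicate 3 and -0.14 in D14 replicate 3. The 38 shorter members had a median log2 fold change of -0.27 and the 39 longer ones -0.12. In D0 replicate 3 the shorter members deviated by a median of 0.51, where the trend gave 0.38. The longer ones deviated by 0.27, where the trend gave 0.03, and 31 of the 39 lay above it. With the trend as an offset the medians were -0.05 for the large and -0.02 for the small subunit, and 48 of 77 members were below 0. Of the 5 members whose days did not overlap and whose p was smallest, Mrps24 kept -0.39, Mrpl46 -0.36, Mrps11 -0.34, Mrpl37 -0.23 and Mrpl58 -0.35.

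**Figure D5:**
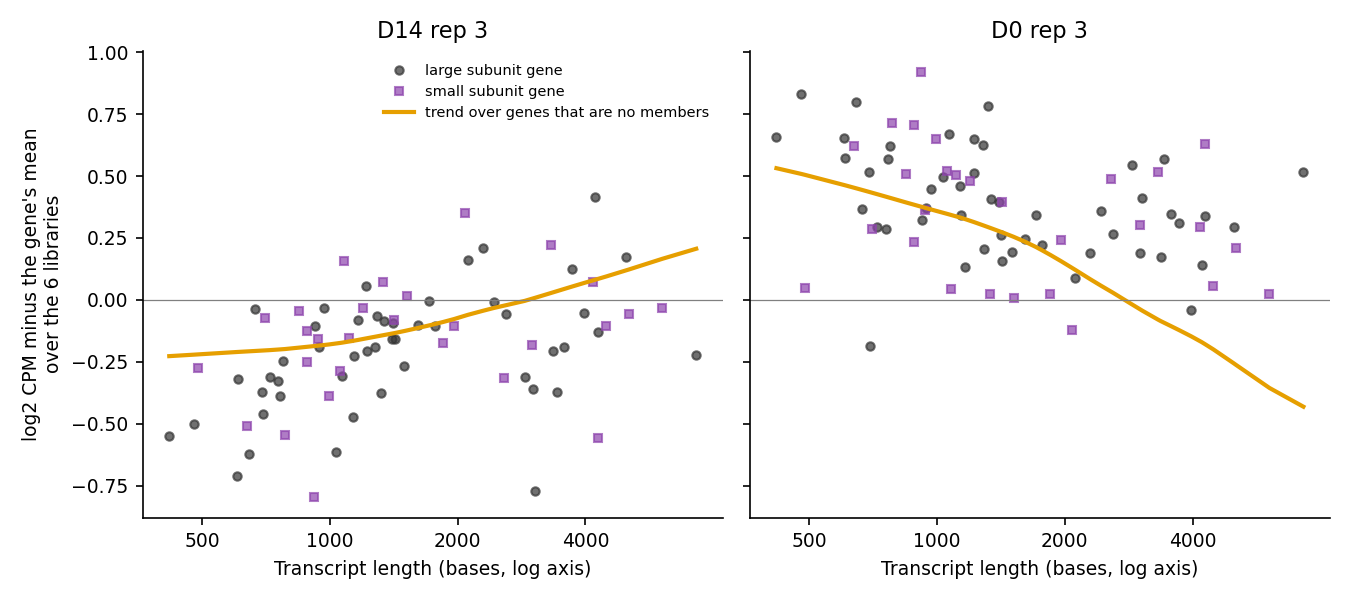
Deviation of log2 CPM from each gene's mean over the 6 libraries against transcript length (log axis) in D14 replicate 3 (left) and D0 replicate 3 (right), with large subunit genes as circles, small subunit genes as squares and the trend of genes that are no members as a line. Short members lie low in D14 replicate 3 and high in D0 replicate 3, and 31 of the 39 longer members lie above the line in D0 replicate 3.

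The genes around the mitoribosome were read from lists of the same pathway. Of their 293 tested genes, 0 passed an adjusted p of 0.05 in edgeR and 0 in limma-voom (against 0.0339% of all genes in each). In DESeq2 2 passed, Rpl23a and Rpl26, where 1.24% of all genes did. At an unadjusted p under 0.05, edgeR had 33 of them lower (11.3%, against 7.09% of all tested genes) and 9 higher at D14 (3.07%, against 5.48%). Of 5 mitoribosomal proteins with other symbols, 4 were below 0. Chchd1, of the small subunit, stood at 24.0, 22.3 and 23.3 CPM in the D14 libraries, against 26.1, 34.8 and 50.9 CPM in the D0 libraries. Gadd45gip1 (Crif1), of the large subunit, stood at 29.5, 28.1 and 23.5 CPM against 35.6, 33.3 and 50.4 CPM. Both had D14 wholly below D0, with log2 fold changes of -0.68 and -0.56 (SE 0.24 and 0.20, adjusted p = 0.364 each), and of -0.39 and -0.35 without D0 replicate 3. Of 23 assembly and rRNA modification genes 19 were below 0 (median -0.14, against 53.1% of all genes below 0), and 6 had D14 ranges below D0 (against 10.7%). Without D0 replicate 3, 13 of the 23 were below 0 (median -0.12), and 12 were with the length offset (median -0.03). Mettl17, an assembly factor of the small subunit, stood at 15.6, 14.3 and 13.97 CPM at D14, against 23.1, 19.0 and 21.3 CPM at D0 (log2 fold change -0.53 with and without D0 replicate 3). The GTPase Mtg2 had -0.49.

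Of 13 translation factors 10 were below 0 (median -0.15). The initiation factor Mtif3 had -0.52, and the elongation factor Gfm1 stood at 44.3, 42.3 and 49.4 CPM at D14, against 38.2, 34.2 and 36.9 CPM at D0 (log2 fold change 0.31, adjusted p = 0.403). Of 17 mitochondrial aminoacyl-tRNA synthetases 11 were below 0 (median -0.09). Cars2 stood at 22.6, 25.1 and 25.7 CPM at D14, against 34.9, 32.9 and 33.1 CPM at D0, and Vars2 had -0.30. Ssbp1, which binds single-stranded mitochondrial DNA, and the helicase Twnk had -0.48 and -0.32, and 9 of 10 genes of mitochondrial DNA transcription and maintenance were below 0. Of 11 RNA processing genes 4 were below 0. Among these, Lrpprc, which stabilises mitochondrial messages, had 0.34 and Fastkd5 -0.30.

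Most genes of mitochondrial DNA lay on the other side. Of 29 tested genes of mitochondrial DNA 26 had a log2 fold change above 0 (median 0.43, and 0.63 without D0 replicate 3), and 5 had D14 ranges above D0 (against 10.9% of all tested genes). The 37 rows of mitochondrial DNA summed to 24240, 33503 and 45279 CPM in the D14 libraries, against 21890, 24805 and 27630 CPM in the D0 libraries. D14 replicate 1 lay within the D0 range, and 19 of the 29 tested genes were highest in D14 replicate 3. mt-Atp8, an ATP synthase subunit, stood at 230.8, 381.9 and 473.3 CPM at D14, against 186.0, 219.7 and 207.0 CPM at D0 (0.83, SE 0.26, adjusted p = 0.364). The transfer RNA gene mt-Tp had 1.08 at a low level, 4.40, 4.59 and 9.10 CPM at D14, against 2.27, 2.56 and 3.72 CPM at D0. The 29 tested genes include other transfer RNA genes and the ribosomal RNA genes mt-Rnr1 and mt-Rnr2, and their median length was 204 bases. The messages among them were not summarised apart. Of 11 general mitochondrial proteins 8 were above 0 (median 0.26), among them the chaperonin Hspd1 (0.49) and citrate synthase Cs (0.41). In contrast, 63 of 78 nuclear subunits of the respiratory chain and ATP synthase were below 0 (median -0.27, and -0.03 without D0 replicate 3), with Atp5e at -1.25 and Ndufb5 at -0.44, which were -0.78 and -0.28 without that library. The cytosolic ribosomal proteins had 79 of 86 below 0 (median -0.40, and -0.21), and 71 of the 86 were highest in D0 replicate 3. Among them, Rpl26 had -1.54, at 2.44 to 4.85 CPM at D14 and 7.73 to 17.3 CPM at D0, and Rpl23a had -1.30. Median transcript lengths were 824 and 874 bases in these 2 lists of nuclear genes. Of 10 transcriptional regulators 8 were above 0 (median 0.08), and 5 of the 10 were below 0 without D0 replicate 3 (median 0.03). The coactivators Ppargc1a and Ppargc1b had 0.96 and 0.79, each highest in D14 replicate 3. That library also had the highest adipocyte and cardiac muscle marker sums, 950.5 and 535.5 CPM, and the part of these cells in the values of mitochondrial genes was not tested.

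Members often shared a start region with another gene. For 33 of the 78 (42.3%) a protein-coding gene on the opposite strand started within 1000 bases, against 14.6% of 14551 tested protein-coding genes. In 30 such pairs the partner was tested and no member itself. The member was below 0 in 28 of these pairs and the partner in 16 (53.3%, against 53.1% of all tested genes), and the partners had a median log2 fold change of -0.11. The partners included Twnk for Mrpl43, Ndufb5 for Mrpl47, the mitochondrial seryl-tRNA synthetase Sars2 for Mrps12, and Fau, which encodes a protein of the cytosolic ribosome, for Mrpl49.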

How the data were processed

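The build GRCm38 and the tools StringTie 1.3.4b, HISAT2 2.1.0, CASAVA 1.8 and edgeR appear, without role or order, in the submitters' processing notes. Which tool counted, whether by strand, and on which annotation is not given in the sources used here. The deposited table holds estimated counts per symbol, 1 column per library, and all values kept were whole numbers. Of 29757 lines 4 were left out: Tnf and Tgfb1, which are empty, and the displaced lines after them. Another 50 lines that repeat a symbol were kept apart. Totals were 14878101 to 17385006 counts.

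D14 and D0 were compared with edgeR 4.0.16 in R 4.3.3 (TMM, default low count filter, robust quasi-likelihood F test, two-sided, Benjamini-Hochberg over 17686 genes). The SE is the absolute log2 fold change divided by the root of F. Log2 CPM used a prior count of 2. The length trend is a lowess of span 0.3 per library on genes that are no members. Lengths are of the longest principal transcript in GENCODE, where 97.0% of symbols and all 78 members were found. Exon overlaps and shared 50-base words were read from the same annotation, and near copies are reported from 10% of words. Of 69 members with a RefSeq promoter window, 65 had its last bases in an annotated transcript on the same strand.

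Alternatives were DESeq2 1.42.0, limma-voom (limma 3.58.1), RLE or no scaling factors, 2 other low count filters (none, and at least 1 CPM in 3 libraries), no robust estimation, a replicate block, the length trend as an offset, and each library left out. The members, lists, motifs and rules were chosen with earlier results of these data known. The members described in full are, per subunit, the 3 with the smallest p in each direction, the 3 of highest and the 1 of lowest level per kilobase among those tested, and a panel of S18 paralogues, stalk, decoding, exit proteins and Mrps30. In each pathway list the 2 genes of smallest p are named.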

Additional observations from a re-analysis of the deposited data

How the results depend on the processing

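The count of members past an adjusted p of 0.05 was 0 under every alternative run, with a lowest adjusted p of 0.180 (without D0 replicate 1). The labels state no pairing by replicate number. Deviations of same-numbered libraries correlated at 0.119, -0.055 and -0.097, and those of libraries of different number at -0.168 to 0.183. With 3 libraries per day, such correlations cannot show whether the samples were paired. With the replicate block 0 genes of the whole table were called, and the large subunit median was -0.22 and the small -0.15. The block leaves the levels unchanged, so the same 15 members had D14 ranges below D0 (against 10.7% of all tested genes). The large subunit median was -0.0472 with the length offset, -0.0558 with the replicate block and the offset, and -0.312 to -0.0629 with 1 library left out. The small subunit median was -0.26 to -0.05 with 1 left out, with Mrps10 counted where it passed the filter. It passed without D0 replicate 3, and the median of -0.03 given above for that setting leaves it out. Ranges did not overlap for 9 members with the offset (against 20.6% of all tested genes) and for 9 with block and offset. With 1 library left out the count was 16 to 27. The 27 were without D14 replicate 1, where 35.0% of all genes had ranges that do not overlap. No scaling factors put the medians at -0.30 and -0.22, with the median of all genes at -0.10. The causes were not tested.

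Of 416 values of the 26 described members 20 changed sign, in 10 members. With 1 library left out the log2 fold change ran from -0.257 to 0.0219 for Mrpl19, -0.133 to 0.261 for Mrpl45, -0.066 to 0.460 for Mrpl53, -0.531 to 0.0735 for Mrps12, -0.122 to 0.0507 for Mrps18a, -0.406 to 0.0312 for Mrps18c, -0.0522 to 0.227 for Mrps2, -0.0987 to 0.143 for Mrps23 and -0.27 to 0.15 for Mrps30. The length offset gave 0.174 for Mrps18a, 0.0121 for Mrps18c and 0.0343 for Mrps21, and with the replicate block 0.174, 0.0066 and 0.0316. Without scaling factors Mrpl45 had -0.0198 and Mrps23 -0.0464.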
